A study of Mus musculus with 6 samples.

Results

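The 6 genes described here, Pcp2, Arhgef33, Stac, Strip2, Dner and Mtss1, are enriched in Purkinje cells but are neither ion channels, transmitter receptors, calcium genes nor transcription factors. They were chosen by symbol, with earlier results of these data known. All 6 were present among the 48709 gene identifiers of the count table and among the 16699 genes tested. Messenger RNA of whole cerebellum was sequenced from 3 knock-in samples and 3 wild-type samples of C57BL/6J mice aged 40 weeks. The knock-in mice carried an SCA7 allele of Atxn7 coding for 140 glutamines beside an allele coding for 5 glutamines, and the titles of these samples mark them as heterozygous. The wild-type mice carried no knock-in allele. Spinocerebellar ataxia type 7 is caused by such an expanded glutamine repeat in ataxin-7, and the comparison asks which cerebellar transcripts differ with the expanded allele. The labels do not say whether each sample was 1 animal or a pool, and the spread that the p-values are based on may therefore be partly technical.

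Purkinje cells are the large inhibitory neurons whose axons are the only output of the cerebellar cortex. They integrate input from granule neurons and climbing fibres on a broad dendritic tree and are wrapped by Bergmann glia. The 6 genes serve different parts of this cell. Pcp2, also called L7, is a small GoLoco protein that binds G protein alpha subunits of the Gi/o class and is a classical marker of these cells. Arhgef33 belongs by sequence to the guanine nucleotide exchange factors, which load small GTPases with GTP. Stac is an adaptor with an SH3 and a cysteine-rich domain whose family binds L-type calcium channels. Strip2 is a subunit of STRIPAK, a complex of phosphatase 2A and kinases. Dner is a transmembrane Notch ligand on Purkinje cells that acts on Bergmann glia, and Mtss1 is an I-BAR protein that bends membrane and shapes dendrites and spines in mouse Purkinje cells.

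Of the 6 genes, 4 fell in knock-in cerebellum, namely Stac, Arhgef33, Strip2 and Dner, with an edgeR adjusted p of 0.05 or less, and none rose. Mtss1 had a log2 fold change close to that of Dner but did not pass the threshold, and Pcp2 had nearly the same mean level in both groups. Over all genes tested, 1.28% were called lower and 0.629% higher, 1.9% in all. The 213 lower and 105 higher calls became 190 lower and 323 higher calls when libraries were scaled by their size alone, and the same 4 genes were lower under that scaling. The median log2 fold change was -0.46 over the 6 genes and 0.01 over all genes tested. In 5 of the 6 genes every knock-in sample lay below every wild-type sample, a pattern seen in 11.5% of all genes tested (23.8% counting both directions). In bulk tissue fewer Purkinje cells and less RNA per cell cannot be told apart.

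The knock-in libraries held 34630391 to 39826478 counts and the wild-type libraries 39528292 to 49127673. Transcripts of brainstem neurons differed between libraries. The summed level of the 10 tested of 17 brainstem markers was 103, 28.5 and 66.45 CPM in knock-in replicates 1, 2 and 3 and 25.1, 31.95 and 26.45 CPM in wild-type replicates 1, 2 and 3. The sum in knock-in replicate 2 was thus within the wild-type range, but in 6 of the 10 markers every knock-in library, replicate 2 included, was above every wild-type library. Of the 10, edgeR called 3 higher, Hoxa7, Ddc and Slc18a2, and DESeq2 called 5 higher, with a list median log2 fold change of 3.13. Hoxa7, a Hox gene of the hindbrain and spinal cord, had 0.433, 0.377 and 0.418 CPM in knock-in and 0, 0.0239 and 0.0258 CPM in wild type. It passed the low-count filter through the knock-in libraries alone, so its direction was favoured by that filter. The calls, the count of separate markers and the median cover only the 10 markers that passed. The part of brainstem RNA in the results for the 6 genes was not tested, apart from a model with the mean log2 level of these markers as a term. CPM is the count of a gene over the TMM-scaled size of its library, on the scale usual for this unit. A list of 42 other genes of Purkinje cells was written with earlier results of these data known. Not all of them are confined to these cells. Other cerebellar neurons also express members such as Gad1, Gad2, Slc32a1 and Cbln1. These genes summed to 16720 to 20110 CPM in knock-in and 24380 to 27410 CPM in wild type. None of them was absent from the genes tested, but whole-tissue counts do not show which cells the transcripts of any gene came from.

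Promoter windows of Pcp2, Arhgef33 and Dner are shown because they hold the letters AGGTCA, the core motif of ROR nuclear receptors such as the Purkinje cell factor ROR alpha. Each window runs from 250 bases before to 50 bases after a RefSeq start site on GRCm38.p6, the build also called mm10, and capitals mark AGGTCA or its reverse complement.
Pcp2, chr8:3625498-3625797, minus strand: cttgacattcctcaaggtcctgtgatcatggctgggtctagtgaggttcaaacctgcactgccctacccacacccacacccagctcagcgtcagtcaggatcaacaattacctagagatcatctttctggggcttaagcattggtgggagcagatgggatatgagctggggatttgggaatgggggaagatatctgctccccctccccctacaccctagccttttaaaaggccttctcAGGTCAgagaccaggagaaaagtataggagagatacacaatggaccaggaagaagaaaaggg
Arhgef33, chr17:80307157-80307456, plus strand: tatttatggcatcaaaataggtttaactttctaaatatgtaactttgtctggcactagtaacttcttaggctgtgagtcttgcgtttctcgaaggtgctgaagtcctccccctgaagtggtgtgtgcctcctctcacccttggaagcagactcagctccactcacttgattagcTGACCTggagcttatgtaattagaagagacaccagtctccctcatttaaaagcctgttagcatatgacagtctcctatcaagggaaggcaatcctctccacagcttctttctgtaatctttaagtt
Dner, chr1:84696172-84696471, minus strand: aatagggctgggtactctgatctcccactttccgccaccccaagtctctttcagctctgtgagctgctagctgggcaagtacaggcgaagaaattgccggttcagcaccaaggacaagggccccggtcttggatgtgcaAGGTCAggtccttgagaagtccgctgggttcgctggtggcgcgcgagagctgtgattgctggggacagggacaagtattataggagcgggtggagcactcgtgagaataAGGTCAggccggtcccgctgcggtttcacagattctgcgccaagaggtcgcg
The Pcp2 copy starts 12 bases before the start site. The Arhgef33 copy lies on the other strand, and Dner holds 2 copies.

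AGGTCA was searched on both strands, and none of its copies overlapped another motif searched. It occurred in 3 of the 5 windows that were matched, against 16% of 27025 windows taken 1 per gene and 12.1% of the 12216 windows of genes tested. For Pcp2, 4 windows were listed and the one nearest the GENCODE start was used, whereas the background took the first window listed for each gene. The E-box CANNTG occurred in 4 of 5, the windows of Pcp2, Arhgef33, Stac and Strip2. It was present in 72.1% of all windows and 64.1% of those of genes tested. Neither CCCNNGGG nor TATAAA occurred in the 5 windows, and these letters were present in 13.4% and 14.2% of all windows. In the windows of genes tested the shares were 18.1% and 7.39%. The genes with AGGTCA thus include Pcp2, with the smallest difference of the 6, and Arhgef33, with the second largest. A match of letters is a description of the window and was not related to binding by any measurement here.

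**Figure D1:**
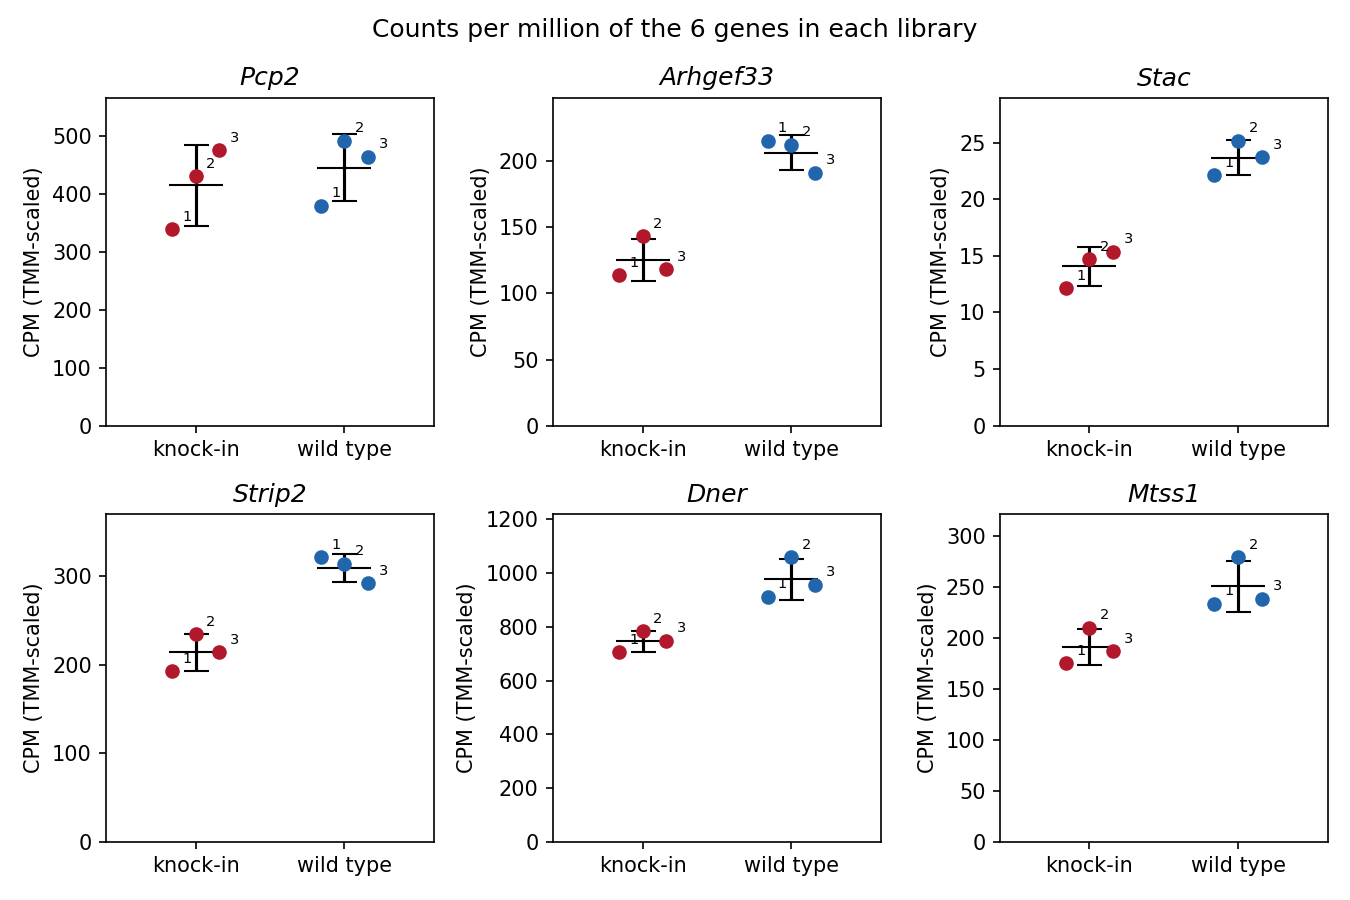
TMM-scaled CPM of each gene (vertical axes, starting at 0) in the 3 knock-in libraries (red, left) and the 3 wild-type libraries (blue, right), with replicate numbers; bars are the mean ± SD. The groups overlap for Pcp2 and are separate for the other 5 genes.

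Pcp2 (ENSMUSG00000004630, chromosome 8, 3623371 to 3625545, minus strand, mm10) had 338, 430 and 475 CPM in the knock-in samples, against 379, 491 and 464 CPM in the wild-type samples. Replicate 1 was the lowest sample of each group, and the groups overlapped almost fully. The means were 415 ± 69.8 CPM in knock-in and 445 ± 58.2 CPM in wild type (SD, n = 3 each). The log2 fold change was -0.10 ± 0.13 (SE) with a 95% interval of -0.39 to 0.19 and an edgeR adjusted p of 0.73. The interval leaves room for a decrease as large as that of Dner or Mtss1, so a smaller effect on Pcp2 was not shown by this test alone. Of the 1828 exonic bases of Pcp2, 941 are also exonic in Pet100, a gene on the opposite strand that encodes an assembly factor of cytochrome c oxidase. Pet100 had 16.5 ± 3.04 CPM in knock-in and 16.4 ± 2.35 CPM in wild type. How reads from the shared bases were assigned is unknown, because the strand setting of the counting is not given in the sources used here.

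Arhgef33 (ENSMUSG00000054901, chromosome 17, 80307407 to 80400081, plus strand) had 114, 143 and 118 CPM in the knock-in samples and 215, 212 and 191 CPM in the wild-type samples. The highest knock-in sample, replicate 2, was well below the lowest wild-type sample. The mean fell to 125 ± 16 CPM in knock-in, 60.7% of the 206 ± 13.1 CPM in wild type (SD, n = 3 each). The log2 fold change was -0.72 ± 0.10 (SE) with an edgeR adjusted p of 0.00985, and 1.5% of the genes tested had a lower value. The predicted gene Gm10190 on the opposite strand shares 324 exonic bases with Arhgef33.

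Stac (ENSMUSG00000032502, chromosome 9, 111561437 to 111690348, minus strand) had the lowest counts of the 6. Its level was 12.2, 14.7 and 15.4 CPM in the knock-in samples and 22.1, 25.2 and 23.7 CPM in the wild-type samples, from 449 to 586 raw counts in knock-in and 919 to 1079 in wild type. The 2 ranges were far apart. The mean fell to 14.1 ± 1.70 CPM in knock-in, 59.5% of the 23.7 ± 1.53 CPM in wild type (SD, n = 3 each). The log2 fold change was -0.75 ± 0.11 (SE), with an edgeR adjusted p of 0.0134. This was the largest fold change of the 6, although the 95% intervals of Stac, -1.0 to -0.50, and Arhgef33, -0.94 to -0.50, nearly coincided. The antisense gene Gm43236 shares 299 exonic bases with Stac.

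Strip2 (ENSMUSG00000039629, chromosome 6, 29917012 to 29959681, plus strand) had 193, 235 and 214 CPM in the knock-in samples, against 321, 314 and 292 CPM in the wild-type samples. Again replicate 2 was the highest of the knock-in samples and remained below all wild-type samples. The mean fell to 214 ± 21 CPM in knock-in, 69.2% of the 309 ± 15.3 CPM in wild type (SD, n = 3 each). The log2 fold change was -0.53 ± 0.09 (SE) with an edgeR adjusted p of 0.0185.

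Dner (ENSMUSG00000036766, chromosome 1, 84369839 to 84696221, minus strand) ranked 95 by mean CPM among the genes tested. Its level was 707, 784 and 749 CPM in the knock-in samples and 913, 1060.1 and 958 CPM in the wild-type samples. The groups did not overlap, and the gap between them was larger than the SD of either. The mean fell to 746 ± 38.8 CPM in knock-in, 76.4% of the 977 ± 75.6 CPM in wild type (SD, n = 3 each). The log2 fold change was -0.39 ± 0.08 (SE) with an edgeR adjusted p of 0.0418, close to the threshold. A microRNA gene on the opposite strand, Mir5126, shares 77 exonic bases with Dner.

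Mtss1 (ENSMUSG00000022353, chromosome 15, 58941234 to 59082005, minus strand) had 176, 210 and 187 CPM in the knock-in samples, against 234, 280 and 239 CPM in the wild-type samples. Replicate 2 was the highest sample of each group, and the groups did not overlap. The means were 191 ± 17.7 CPM in knock-in and 251 ± 25.2 CPM in wild type (SD, n = 3 each). The log2 fold change was -0.39 ± 0.10 (SE) with a 95% interval of -0.61 to -0.18. The unadjusted edgeR p was 0.00218 and the adjusted p 0.0764, so Mtss1 failed the correction over all genes tested. Its fold change matched that of Dner to 2 decimals, with a larger standard error.

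Levels can be compared between genes only per length. Per 1000 exonic bases of the gene model, Pcp2 had the highest level, 227 ± 38.2 CPM in knock-in and 243 ± 31.9 CPM in wild type (SD, n = 3 each). Dner followed with 156 ± 8.12 and 204 ± 15.8 CPM per 1000 bases in knock-in and wild type. The ranges of Pcp2 and Dner were separate in knock-in, at 185 to 260 against 148 to 164, and overlapped in wild type, at 208 to 269 against 191 to 222. Arhgef33 and Strip2 came next. They overlapped in knock-in, at 26.7 ± 3.41 and 25.7 ± 2.52 CPM per 1000 bases, and were separate in wild type, at 44.1 ± 2.81 and 37.1 ± 1.83. Mtss1, at 16.8 ± 1.56 and 22.1 ± 2.22 CPM per 1000 bases in knock-in and wild type, and Stac, at 5.32 ± 0.643 and 8.95 ± 0.580, were the lowest in both groups. The union of all annotated exons exceeds the length of a single transcript, most of all for genes with many isoforms.

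The level of each gene relative to Pcp2 in the same library hardly depends on how libraries are scaled. The log2 ratio of Stac to Pcp2 was -4.74, -4.82 and -4.91 in the knock-in libraries and -4.07, -4.26 and -4.26 in the wild-type libraries, 0.63 lower in knock-in. The ratio of Arhgef33 to Pcp2 was -1.57, -1.58 and -2.00 in knock-in and -0.82, -1.21 and -1.28 in wild type. For Stac, Arhgef33 and Strip2 the groups did not overlap, and each had a two-sided exact permutation p of 0.1, the smallest that 3 against 3 samples can give. Adjusted over the 5 ratios this was 0.167. The ratios of Dner and Mtss1 to Pcp2 both differed by -0.28 between knock-in and wild type, with groups that overlapped and an exact permutation p of 0.2 each. The ratios therefore did not pass a threshold of 0.05, which this design cannot reach, and the choice of Pcp2 as denominator was made with its values known.

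**Figure D2:**
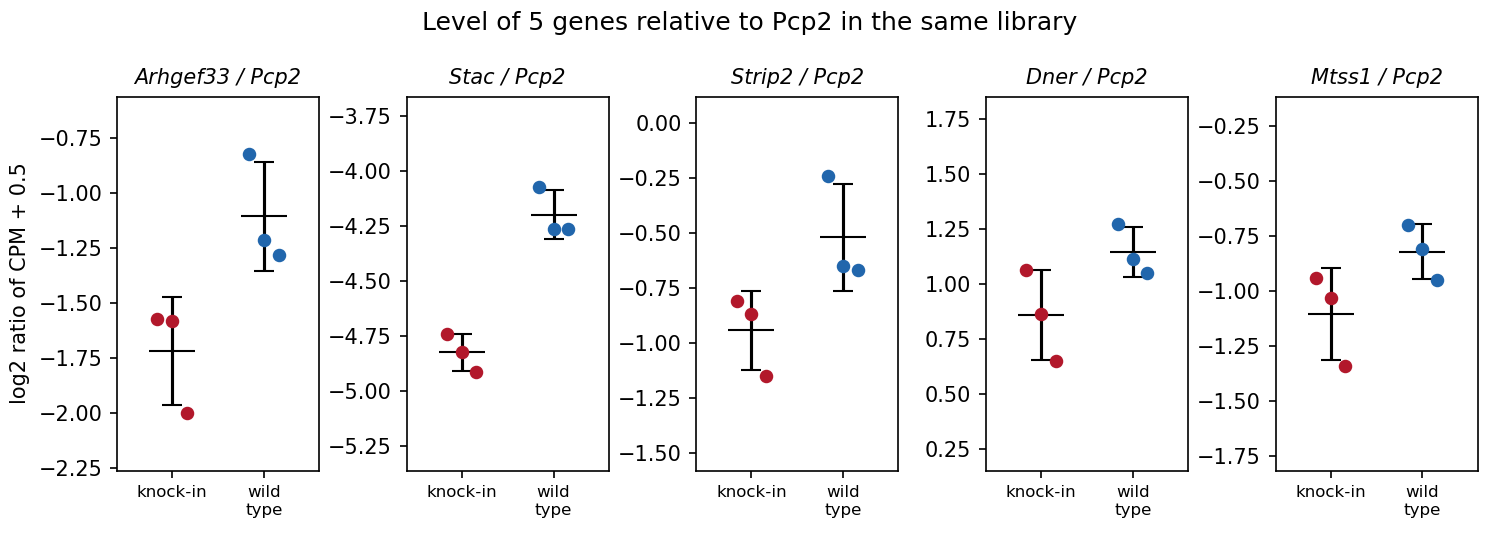
log2 ratio of CPM + 0.5 of 5 genes to Pcp2 in each knock-in library (red, left) and wild-type library (blue, right), with replicates 1 to 3 from left to right in each group; bars are the mean ± SD, and all panels span the same height on the log2 scale. The groups are separate for Arhgef33, Stac and Strip2 and overlap for Dner and Mtss1.

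The samples also ordered the genes differently. In Arhgef33, Strip2, Dner and Mtss1 the highest knock-in sample was replicate 2, which had the lowest summed brainstem marker level of the knock-in samples. The lowest was replicate 1, which had the highest brainstem level. Wild-type samples did not share 1 order. Wild-type replicate 2, with the highest brainstem sum of its group, was highest in Dner and Mtss1. Wild-type replicate 1, with the lowest sum, was highest in Arhgef33 and Strip2. By the mean log2 level of the markers, wild-type replicate 3 was lowest instead, at -1.17 against -0.78 in replicate 1. Apart from the model with that mean level as a term, a relation to the brainstem level was not tested here. In Stac and Pcp2 the highest knock-in sample was replicate 3, and the lowest was again replicate 1. Across the 6 libraries, the log2 levels of the 5 genes other than Pcp2 had Pearson r between 0.93 and 0.99 with each other. With Pcp2 their r was between 0.31 and 0.55. These correlations describe 6 libraries that share the genotype difference and carry no test.

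Among 10059 genes with a mean of at least 10 CPM, those most like each gene across the 6 libraries were listed by Pearson r. They were picked as the highest of many values over 6 libraries that share the genotype difference. A high r can arise from such a choice alone, and no test was run. For Arhgef33 they were Armh4, Inpp5e, a phosphoinositide phosphatase, and Arhgap26, a GTPase-activating protein, at 0.999, 0.998 and 0.997. For Strip2 they were Cyth3, an exchange factor of ARF GTPases, Garnl3 and Fgf11, at 0.999, 0.999 and 0.998. Stac had Nsg1, an endosomal protein of neurons, the tubulin Tuba8 and Cbln1, the synaptic organiser cerebellin 1, at 0.994, 0.992 and 0.989. Dner was followed by Orai3, Kcng4 and Fam98b, at 0.995, 0.995 and 0.992, and Mtss1 by Fam98b, Man1c1 and the ceramide kinase gene Cerk, at 0.997, 0.996 and 0.994. For Pcp2 they were Pqbp1, Lyar and Csad, at 0.972, 0.969 and 0.968, whose log2 fold changes were -0.01, -0.07 and -0.07. Of all the genes listed here, edgeR called Armh4, Arhgap26, Cyth3, Garnl3, Fgf11, Nsg1 and Cerk lower. It called none of the others, Fam98b and Orai3 included.

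Of the 42 other Purkinje cell genes, 15 fell and none rose, with a median log2 fold change of -0.37, against 0.01 over all genes tested and a background of 1.28% called lower. This list was written with earlier results of these data known, and it holds genes that are not confined to Purkinje cells. The lowest adjusted p values in it were those of Fam107b, Rgs8, a regulator of G protein signalling, and Gng13, a G protein gamma subunit. Their log2 fold changes were -1.15, -1.01 and -0.81, with edgeR adjusted p values of 0.00116, 0.00175 and 0.00392. Ordered from the lowest log2 fold change, Stac was the 5th and Arhgef33 the 7th of the combined 48 genes, whereas Pcp2 was the 44th, beside the transcription factor genes Esrrb, at -0.06, and Ebf1, at 0.00. Rora, which encodes ROR alpha, had a log2 fold change of -0.44 and an adjusted p of 0.0805, above the threshold.

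**Figure D3:**
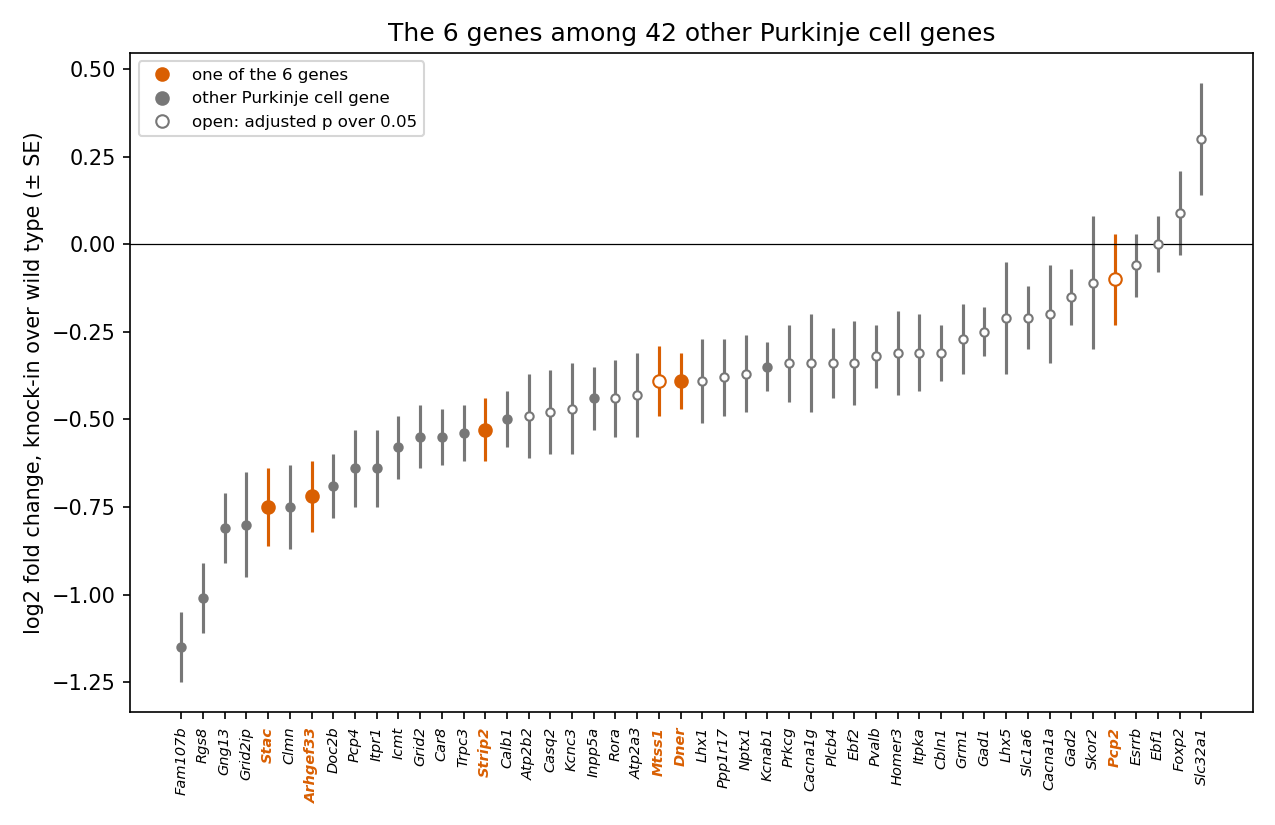
log2 fold change of knock-in over wild type ± SE (vertical axis) for the 6 genes (orange) and the 42 genes of the other Purkinje cell list (grey), ordered from lowest to highest; open circles have an edgeR adjusted p over 0.05. Not all listed genes are confined to Purkinje cells. Stac and Arhgef33 lie near the low end at -0.75 and -0.72, Strip2, Mtss1 and Dner in the middle, and Pcp2 near the high end at -0.10.

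Genes that work with 5 of the 6 were compared in lists written with earlier results known. Of 15 GoLoco and G protein genes related to Pcp2, none was called by edgeR, 8 had an unadjusted p under 0.05, DESeq2 called 1 lower and 1 higher, and the median log2 fold change was 0.17. Gnao1, with the highest CPM over both groups, which encodes the Go alpha subunit, had 535 ± 44.6 CPM in knock-in and 685 ± 56.2 CPM in wild type (SD, n = 3 each; edgeR adjusted p 0.0808).

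Among 16 genes of the STAC family, L-type channels and their junctional partners, Cacnb2, a calcium channel beta subunit, fell to 47.2 CPM in knock-in, against 64.6 CPM in wild type (edgeR adjusted p 0.0291). No other member passed with edgeR, 5 had an unadjusted p under 0.05, DESeq2 called 2 lower, and the median was -0.02. Stac2, the paralogue of Stac, had 48.5 ± 7.09 CPM in knock-in and 60.8 ± 11.2 CPM in wild type, with an adjusted p of 0.259. None of the 19 STRIPAK genes other than Strip2 was called by edgeR, 4 had an unadjusted p under 0.05, DESeq2 called 2 lower, and their median was -0.02. The phosphatase scaffold gene Ppp2r1a, which had the highest CPM of the list, had a log2 fold change of 0.03 ± 0.07 (SE).

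None of the 23 genes listed as related to Notch or to Dner was called by edgeR, with a median of 0.07. Of these, 5 had an unadjusted p under 0.05, and DESeq2 called 1 lower and 1 higher. Ptprz1, a receptor phosphatase of glia with the highest CPM of the list, had 305 ± 43.7 CPM in knock-in and 408 ± 25.1 CPM in wild type (edgeR adjusted p 0.0805). Of 11 tested Bergmann glia markers, the cells that receive the Dner signal, edgeR called A2m alone, at a log2 fold change of -0.56 (adjusted p 0.0232), 5 had an unadjusted p under 0.05, DESeq2 called 4 lower, and the median was -0.26. Among 23 tested I-BAR and actin nucleation genes related to Mtss1, the Arp2/3 subunit gene Arpc1b rose to 16.1 CPM in knock-in, against 10.4 CPM in wild type (adjusted p 0.0312), and no other was called by edgeR or DESeq2. The paralogue Mtss1l, listed under its older symbol, had 366 ± 60.1 CPM in knock-in and 393 ± 53.3 CPM in wild type (adjusted p 0.711).

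Besides the brainstem markers, markers of other cell types moved with the groups in part. Of 17 granule neuron markers 3 fell, namely Grm4, Chn2 and Cbln3 at log2 fold changes of -0.74, -0.52 and -0.46, with a list median of -0.14. Of 11 astrocyte markers 5 fell, among them Slc1a2 at -0.63, Aqp4 at -0.54 and Gja1 at -0.49, with a median of -0.42. Of 11 molecular layer interneuron markers edgeR called none, with a median of -0.09. Among these, 4 had an unadjusted p under 0.05 and DESeq2 called 1 lower. Golgi and unipolar brush cell markers, 6 in all, had no edgeR call and a median of -0.29. Of them, 2 had an unadjusted p under 0.05 and DESeq2 called 2 lower. Deep nuclear neuron markers, 7 in all, had no edgeR call and a median of 0.18. Of them, 1 had an unadjusted p under 0.05 and DESeq2 called 1 higher. Of 11 microglia markers edgeR likewise called none, with a median of 0.06 (5 with an unadjusted p under 0.05, 1 called lower and 1 higher by DESeq2). Of 11 oligodendrocyte markers 2 fell, with a median of -0.04. Of 11 choroid plexus markers none was called by either tool and 1 had an unadjusted p under 0.05, with a median of -0.98 and summed levels of 232 to 1863 CPM in knock-in and 892.5 to 2764 CPM in wild type. The part of other cell types in the results for the 6 genes was not tested.

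Leaving out single libraries ended most calls. Of the 4 called genes, Stac alone was called without wild-type replicate 1 or knock-in replicate 3. Arhgef33 alone was called without wild-type replicate 2 or 3, and no gene of the 6 without knock-in replicate 1. Without knock-in replicate 2, 5 of the 6 were called, Mtss1 included. When the mean brainstem marker level of each library was added to the model, none of the 6 and 3 genes in all were called; this level partly follows genotype. The log2 fold changes of Arhgef33, Stac, Strip2, Dner and Mtss1 stayed negative under all 17 alternatives run. Pcp2 was called under none of these alternatives.

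**Figure D4:**
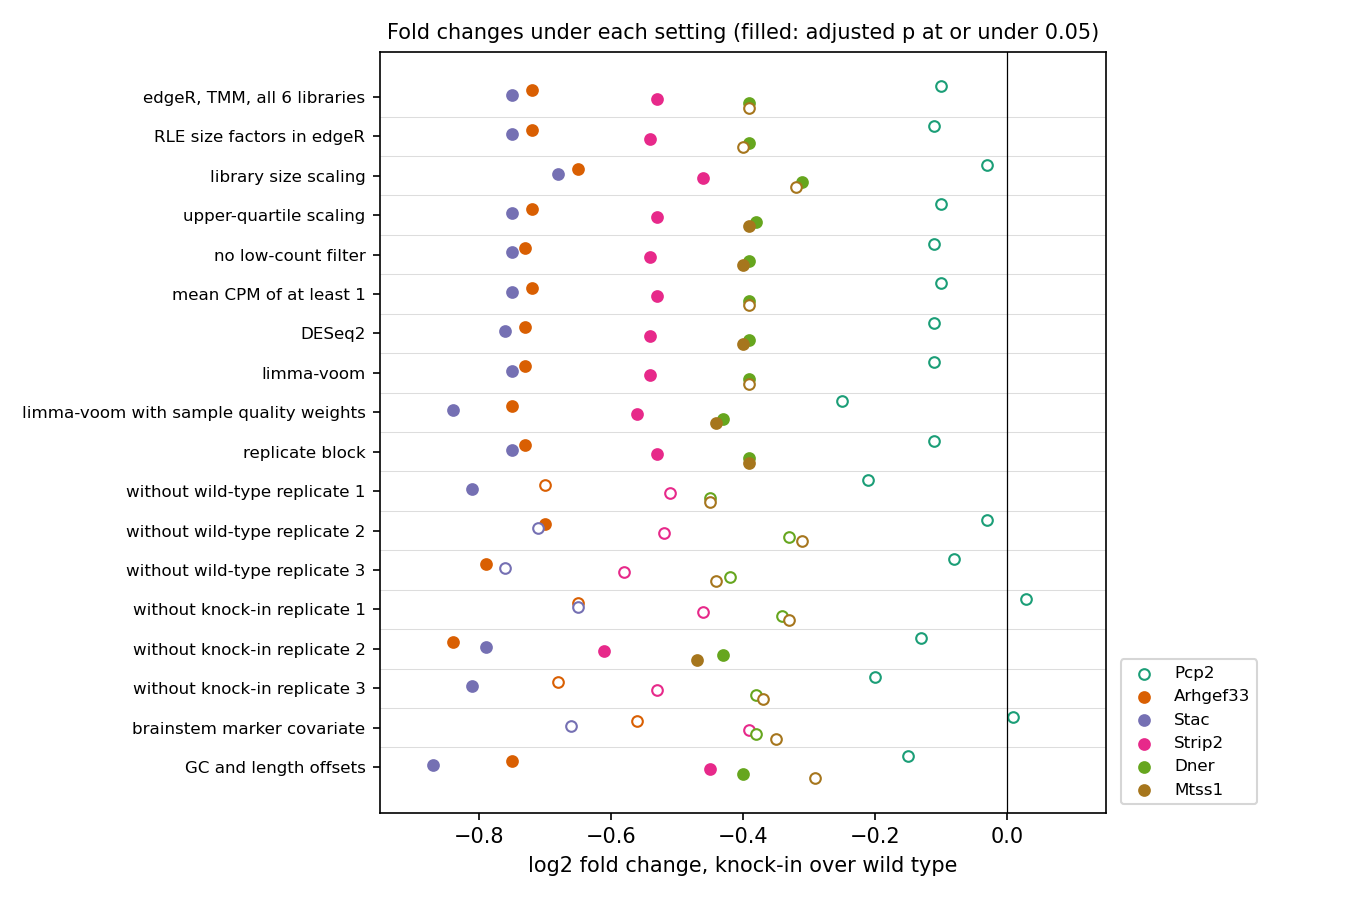
log2 fold change of knock-in over wild type (horizontal axis) of each of the 6 genes under the setting reported and 17 alternatives (vertical axis); filled circles have an adjusted p at or under 0.05. Arhgef33, Stac, Strip2, Dner and Mtss1 lie left of 0 under every setting shown, and Pcp2 is never filled.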

How the data were processed

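The authors deposited 1 table of unnormalized read counts, with a row per Ensembl gene and a column per sample. The submitters' processing notes list HTSeq 0.6.1, Bowtie2 2.1.0, TopHat2 2.0.14 and bcl2fastq 2.17.1.14, on mm10. Neither strand setting nor annotation release is given in the sources used here. Libraries were stranded and made from polyadenylated RNA per the labels' protocols. Symbols, coordinates and exon lengths came from GENCODE M21, which matched 48349 of 48709 identifiers. The 360 others held 0.0503% of counts. All counts lay on rows with a gene identifier.

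The comparison used edgeR 4.0.16 in R 4.3.3 with filterByExpr (at least 10 counts, in total at least 15), TMM scaling, the quasi-likelihood test on genotype alone and Benjamini-Hochberg adjustment over all 16699 genes tested. The SE is the absolute log2 fold change divided by the square root of F. Alternatives used DESeq2 1.42.0 and limma 3.58.1. The 6 genes and all lists were chosen with earlier results of these data known. The rule for named genes took the 6 genes, up to 3 called members of a list with the smallest adjusted p or else the member with the highest mean CPM, and the 3 genes most like each of the 6. The paralogues, Rora, Esrrb and Ebf1 were named after their values were seen. Pairs of libraries within a group differed by more than sampling noise (chi-square per degree of freedom 14.08 to 30.51). In simulated counts of this comparison over 16472 genes, the test called 63% of 100 genes changed 1.5-fold and 83% of 100 changed 2-fold. Of its calls, 6.41% were unchanged genes. Each gene was drawn independently, with dispersions estimated from these data and without any effect shared across the genes of a library. These rates therefore do not give the error of the calls reported here. Promoter windows came from RefSeq and matched 5 of the 6 genes; Mtss1 was not matched. Some genes that the rule took are left out of the text.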

Additional observations from a re-analysis of the deposited data

How the results depend on the processing

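Of all genes, 318 were called (213 lower, 105 higher). The number was 513 with library-size scaling (323 higher), 1303 without the low-count filter (608 lower, 695 higher), 905 with DESeq2 (506 and 399), 746 with limma-voom and quality weights (473 and 273), 756 with GC and length offsets, chosen after seeing the data (519 and 237), and 3 with the brainstem covariate (2 and 1). Without single libraries it lay between 39 and 858 (32 to 510 lower, 7 to 348 higher). Called genes of the other Purkinje cell list, 15 as reported, numbered 30, 27, 26, 29 and 0 under the last 5 of these settings in the order given, and 3 to 25 without single libraries. Of the 6 genes 0 to 5 were called without single libraries and 0 with the brainstem covariate, where Arhgef33 had -0.56 and Stac -0.66 (adjusted p 0.853 each), and Strip2 -0.39 and Dner -0.38 (adjusted p 0.934 each). Without single libraries the log2 fold changes were -0.84 to -0.65 for Arhgef33, -0.81 to -0.65 for Stac, -0.61 to -0.46 for Strip2, -0.45 to -0.33 for Dner, -0.47 to -0.31 for Mtss1 and -0.21 to 0.03 for Pcp2. Pcp2 changed sign without knock-in replicate 1, at 0.03, and with the brainstem covariate, at 0.01, and had its lowest value with quality weights, at -0.25 (adjusted p 0.266). Mtss1 passed the threshold with upper-quartile scaling at -0.39, without the filter at -0.40, with DESeq2 at -0.40 and with quality weights at -0.44. Across 14149 genes, log2 fold changes tended to be higher in genes richer in GC (Spearman rank correlation 0.36). They tended to be lower in genes with longer exon models (-0.28). With the GC and length offsets, Strip2 and Mtss1 were less negative than reported, at -0.45 and -0.29. Arhgef33, Stac, Dner and Pcp2 were more negative, at -0.75, -0.87, -0.40 and -0.15. The cause of these trends and changes was not tested. The 5 ratios to Pcp2 kept their sign with another pseudocount and without each library.

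With the replicate number as a block, 2034 genes were called (1008 lower, 1026 higher), with 35 of the other Purkinje cell genes, and Mtss1 passed at -0.39 (adjusted p 0.00163). The deviations of same-numbered samples from their group means had correlations of 0.07, 0.28 and 0.47 for replicates 1, 2 and 3. Every knock-in sample correlated best with the wild-type sample of its number. The labels do not say that equal numbers pair samples, and these correlations do not settle whether they do. Stac had the fewest counts of the 6 genes, at least 449 per library, and the part of depth in the calls was not tested.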
